A study of Mus musculus with 2 samples.

Results

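Genes of regulated exocytosis, the calcium-triggered release of stored vesicles, were examined in the embryonic mouse pituitary. The 40 genes were taken by name: 7 SNAREs, 2 complexins, 11 synaptotagmins, 6 vesicle proteins, 6 Rab GTPases, 6 priming factors and 2 Rab effectors. All 40 were found among the 55401 genes of each table. Total RNA of pituitaries at embryonic day E12.5 came from wild-type mice and from Dyrk2-/- mice, which lack the protein kinase Dyrk2 (labelled Dyrk2-KO). There was 1 library of each genotype. The sources used here do not give the strain, the allele design or the number of embryos in a library. With a single library on each side there is no replicate to check a difference against, so no p-values are given.

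In endocrine cells and neurons, a vesicle is brought to the plasma membrane by Rab3 and Rab27 GTPases and their effectors, made ready by Munc13 and CAPS proteins, and fused when a vesicle SNARE (a VAMP) zips with the target SNAREs syntaxin and SNAP-25. Complexins hold or promote this assembly, and synaptotagmins sense the calcium that triggers it. Hormone cells use this machinery for dense-core granules and neurons use it for synaptic vesicles. Close relatives such as SNAP-23 and VAMP3 serve secretion and membrane traffic in most other cells.

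Levels are FPKM, which divide the fragments of a gene by its exon length and by the library total, so they can be compared between genes. The estimated totals were 20045406 counted fragments in the wild-type and 20115715 in the knockout library. Intervals are exact 95% Poisson or Clopper-Pearson intervals and reflect counting error alone, without any variation among embryos. In the knockout library Dyrk2 was at 1.93 FPKM (1.70 to 2.19), beside 11.5 FPKM (10.9 to 12.1) in wild type. Of pituitary genes, the pouch factors Pitx1, at 250.4 and 227.1 FPKM, and Lhx3, at 73.0 and 85.9 FPKM, were abundant in both. The libraries differed in transcripts tied to sex, each found in both: Xist, the transcript of the inactive X, measured 75.0 and 14.8 FPKM, and the Y-linked Ddx3y 5.83 and 14.95 FPKM.

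Promoters are shown for Syp, Sv2a, Rab3b and Rab27a, 4 of the 5 members counted as lower in the knockout library below, from the RefSeq promoter table (GRCm38.p6), and for Syn1, whose promoter is a textbook target of the neuronal repressor REST. Each runs 5′ to 3′ over the 250 bases before the annotated start. They lie at chrX:7638330-7638579 on the plus strand (Syp), chr3:96180977-96181226 on the plus strand (Sv2a), chr4:108878820-108879069 on the plus strand (Rab3b), chr9:73044560-73044809 on the plus strand (Rab27a) and chrX:20920919-20921168 on the minus strand (Syn1). Capitals mark any match on either strand. The first motif was the cyclic AMP response element TGACGTCA, together with its core, the shorter TGACG. The next was the E-box bound by bHLH factors, CANNTG, with a particular form of it, CAGCTG, and a further form of it that is spelled CAGATG. The last was the REST element, searched by its left part TTCAGCACC and by its right part.
Syp: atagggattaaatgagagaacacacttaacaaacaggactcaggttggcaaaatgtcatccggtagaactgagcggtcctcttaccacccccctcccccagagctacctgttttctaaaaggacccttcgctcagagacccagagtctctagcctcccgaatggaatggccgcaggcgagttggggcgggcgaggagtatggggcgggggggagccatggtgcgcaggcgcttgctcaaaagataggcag
Sv2a: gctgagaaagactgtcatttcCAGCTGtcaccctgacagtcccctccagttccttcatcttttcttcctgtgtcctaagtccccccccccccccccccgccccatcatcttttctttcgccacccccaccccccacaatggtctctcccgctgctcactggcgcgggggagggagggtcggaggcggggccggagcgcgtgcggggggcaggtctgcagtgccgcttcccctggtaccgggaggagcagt
Rab3b: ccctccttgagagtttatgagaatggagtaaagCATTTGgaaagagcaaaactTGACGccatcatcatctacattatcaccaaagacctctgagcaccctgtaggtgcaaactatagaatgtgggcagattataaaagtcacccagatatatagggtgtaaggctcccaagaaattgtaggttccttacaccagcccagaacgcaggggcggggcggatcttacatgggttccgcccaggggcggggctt
Rab27a: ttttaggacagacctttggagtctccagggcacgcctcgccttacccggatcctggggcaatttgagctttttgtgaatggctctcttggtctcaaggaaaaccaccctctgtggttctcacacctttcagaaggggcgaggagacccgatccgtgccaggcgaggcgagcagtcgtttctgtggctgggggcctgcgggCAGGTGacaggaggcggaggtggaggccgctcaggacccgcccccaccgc
Syn1: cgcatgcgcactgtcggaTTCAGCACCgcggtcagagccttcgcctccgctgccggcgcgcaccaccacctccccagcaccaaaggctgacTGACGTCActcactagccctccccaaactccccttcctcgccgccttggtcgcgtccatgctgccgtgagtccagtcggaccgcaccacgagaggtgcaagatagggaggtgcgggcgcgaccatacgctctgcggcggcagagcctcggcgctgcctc

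No motif was found in all 5 promoters. That of Syp held no match. Sv2a held a CAGCTG E-box, Rab27a another E-box, and Rab3b an E-box and a TGACG. Syn1 held TGACGTCA, which contains TGACG on each strand, and the left part of the REST element. Of the 40 genes, 30 had an entry, with 40 promoters in all. CANNTG was in 27 of these (67.5%), against 66.2% of 32851 promoters in the table, and TGACG in 8 (20%), against 17.8%. CAGCTG was in 12 (30%), against 13.0%, with 3 of the 12 from the starts of Syt6. The form CAGATG was in 1 (2.5%), against 14.4%. The left part of the REST element was in 1 of the 40 (2.5%), that of Syn1, against 0.301% of all promoters, and the right part in none, against 0.420%.

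The set ranged widely in level. The most abundant members in the wild-type library were Vamp3 at 35.0 FPKM, Syt11 at 21.4, Vamp2 at 19.1, Cplx2 at 16.7, Snap23 at 16.3 and Rph3al at 13.0 FPKM. Of the 40 genes, 28 reached 1 FPKM in at least 1 library: 26 in both, and Vamp1 and Rab27b in the wild-type library only. The other 12 stayed below 1 FPKM in both, among them Snap25, the neuronal target SNARE, at 0.80 and 0.61 FPKM. The synaptic genes Cplx1, Syt2, Syn2, Sv2b, Sv2c and Rab3c were lower still, at 0.02 to 0.16 FPKM in the wild-type library and 0.03 to 0.23 FPKM in the knockout library.

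**Figure D1:**
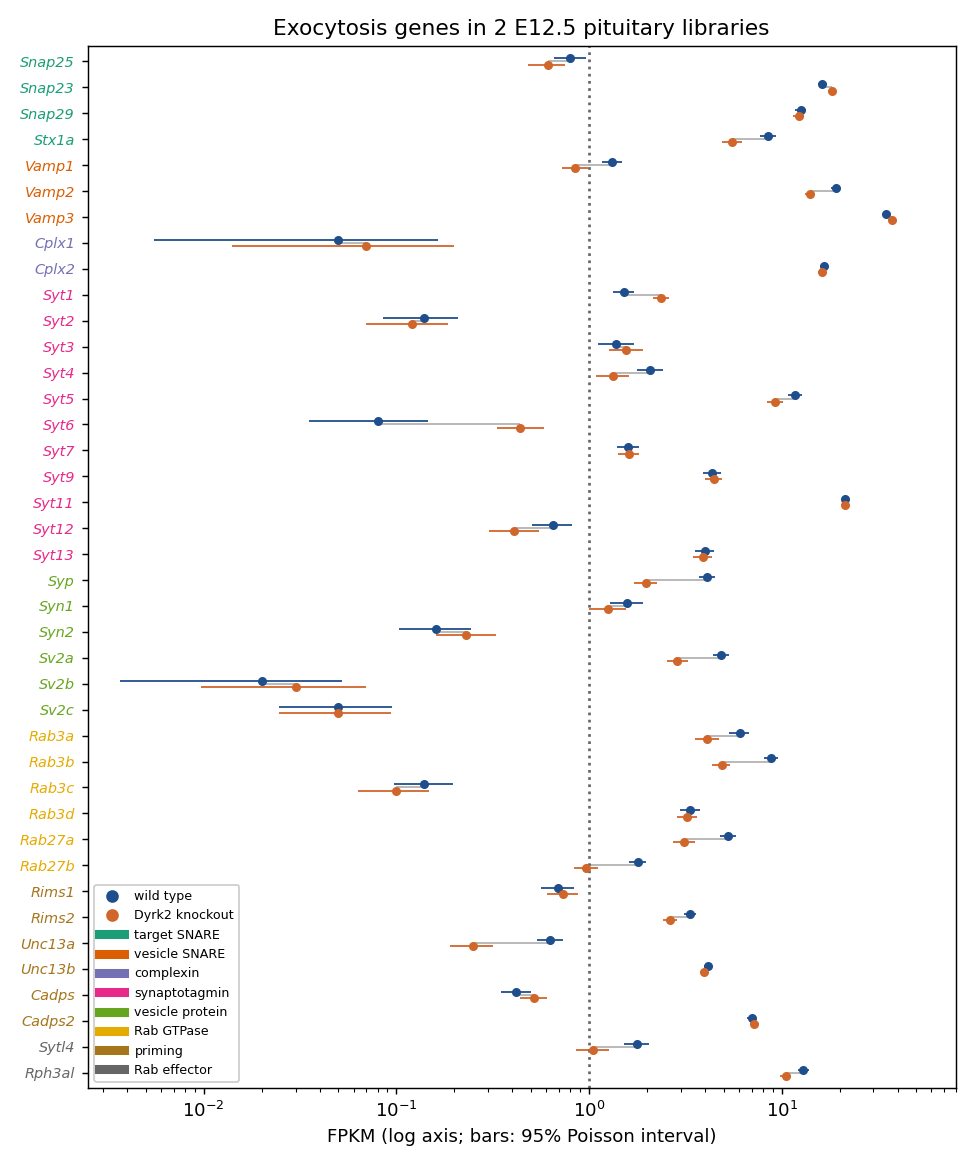
Level of all 40 genes in FPKM (log axis) in the wild-type and the Dyrk2 knockout library, with 95% Poisson intervals, names coloured by role, and the 1 FPKM filter dotted. Vamp3, at 35.0 and 37.4 FPKM, and Sv2b, at 0.02 and 0.03 FPKM, mark the ends of the range.

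Within the set, vesicle proteins and Rab GTPases had the lowest median ratios of knockout over wild type, over only 3 and 5 genes of at least 1 FPKM. A gene is counted as lower or higher when it differed at least 1.5-fold with 0.5 FPKM added on each side. By this rule 5 of the 28 genes above the filter were lower (17.9%) and 0 higher, while of all 14000 genes above the filter 4.56% were lower and 2.06% higher. At 2-fold 0 of the 28 passed in either direction, against 1.89% lower and 0.857% higher of all genes. The 5 were Syp, Rab3b, Rab27a, Sv2a and Rab27b, of which Rab27b passed the filter through the wild-type library only, the side where it is high. The median log2 ratio, knockout over wild type, was -0.27 over the 28 and -0.02 over all 14000. The counting interval of the plain ratio lay below 1 for 14 of the 28 and above 1 for 3, against 22.3% and 17.7% of all genes. In RNA of a whole organ, fewer cells of a type and less RNA per cell cannot be told apart. Just past the 1.5-fold line, and so counted as lower, were Rab27b (log2 ratio -0.64) and Sv2a (-0.67). Just short of it, and so not counted, were Stx1a (-0.58) and Sytl4 (-0.55).

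**Figure D2:**
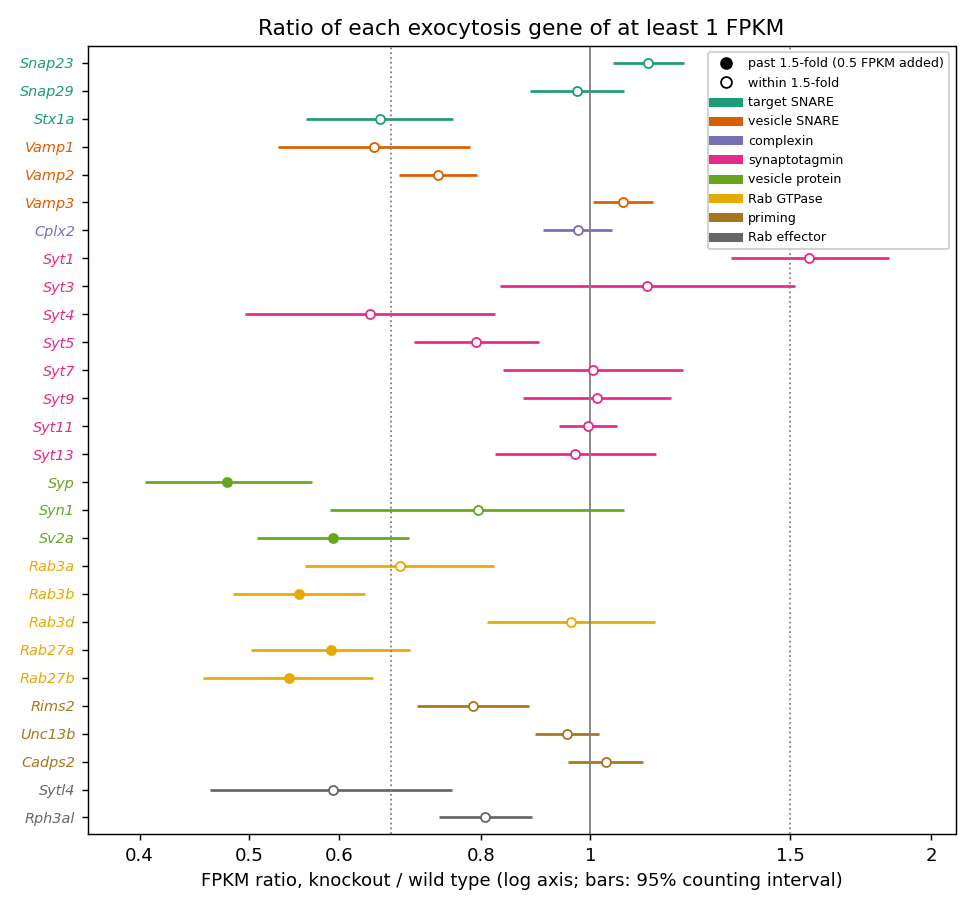
Plain FPKM ratio, knockout over wild type (log axis), of the 28 genes of at least 1 FPKM, with 95% counting intervals. Dotted lines stand at 1.5-fold, and filled points passed 1.5-fold after 0.5 FPKM was added, which is why Sytl4 at a plain ratio of 0.593 is open. Syp is furthest left at 0.478 and Syt1 furthest right at 1.56.

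Among vesicle proteins, Syp encodes synaptophysin, the most widely used marker of synaptic and neuroendocrine vesicles. It lies on chromosome X from 7638471 to 7653256 and measured 4.12 FPKM (3.74 to 4.52) in the wild-type and 1.97 FPKM (1.71 to 2.26) without Dyrk2. That is a 2.09-fold lower value in the knockout (1.76 to 2.47), and the intervals did not overlap. Over 520 X-linked genes the median log2 ratio was -0.01. An antisense gene, Gm14703, overlaps 16.8% of the exon bases of Syp and measured 0.03 and 0 FPKM. Sv2a encodes a glycoprotein of synaptic vesicles and dense-core granules, and its product binds the antiepileptic drug levetiracetam. Sv2a, on chromosome 3 from 96181151 to 96195521, measured 4.86 FPKM (4.43 to 5.33) and 2.88 FPKM (2.55 to 3.25), a 1.69-fold lower level (1.45 to 1.97). Its relatives Sv2b and Sv2c were counted by 3 and 10 fragments in the wild-type library and by 5 and 10 in the knockout library, too few to compare. Syn1, whose product synapsin tethers vesicles to actin, measured 1.57 and 1.25 FPKM, and its ratio of 0.796 had an interval (0.589 to 1.07) that includes 1.

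The Rab GTPases that mark secretory vesicles divided by paralog. Rab3b, a form prominent in pituitary cells, lies on chromosome 4 from 108879063 to 108943324. It measured 8.82 FPKM (8.14 to 9.54) and 4.88 FPKM (4.38 to 5.42) and was 1.81-fold lower in the knockout library (1.58 to 2.07). Rab3a, the main form of brain synapses, measured 6.05 and 4.11 FPKM, with a ratio of 0.679 (0.560 to 0.822). Rab3d, a form of exocrine and mast cell granules, lay near level at 3.35 and 3.22 FPKM.

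Both Rab27 genes were lower. Their products dock granules at the plasma membrane, and loss of Rab27a in mice gives the ashen coat colour. Rab27a, on chromosome 9 from 73044854 to 73097629, measured 5.30 FPKM (4.80 to 5.84) in the wild-type and 3.13 FPKM (2.75 to 3.55) in the knockout library, 1.69-fold lower (1.44 to 1.99). A pseudogene on the same strand, Gm27186, overlaps 3.84% of its exon bases and measured 0.16 and 0 FPKM. Rab27b, on chromosome 18 from 69979131 to 70141605, measured 1.79 FPKM (1.61 to 1.98) and 0.97 FPKM (0.841 to 1.11), 1.85-fold lower (1.56 to 2.20). Within a library the ratio of Rab27a to Rab27b was 2.96 in wild type and 3.23 in the knockout, and the change in that ratio, 1.09-fold (0.865 to 1.37), was within counting error.

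Both Rab effectors of the set had ratios below 1. Sytl4 encodes granuphilin, which binds Rab27 and syntaxin on granules, and measured 1.77 FPKM (1.52 to 2.05) and 1.05 FPKM (0.859 to 1.26). Its plain ratio of 0.593 (0.462 to 0.754) lay beyond 1.5-fold, but not after 0.5 FPKM was added. Rph3al encodes Noc2, an effector needed for hormone release from endocrine cells in mice. At 13.0 FPKM (12.2 to 13.8) and 10.5 FPKM (9.78 to 11.2), its ratio was 0.808 (0.735 to 0.887). Rph3a, which encodes the Rab3 effector rabphilin and is outside the set, was below the filter at 0.48 and 0.77 FPKM, with a ratio of 1.60 (1.08 to 2.37).

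Among SNAREs no gene passed 1.5-fold after 0.5 FPKM was added, though the plain ratios of Stx1a and Vamp1 lay beyond it. Stx1a, Vamp1 and Vamp2 had ratios below 1 by more than counting error, while Snap29 was level and Snap23 and Vamp3 were slightly higher. Stx1a, the syntaxin of the plasma membrane in neurons and endocrine cells, measured 8.50 FPKM (7.73 to 9.31) and 5.54 FPKM (4.93 to 6.21), a ratio of 0.652 (0.561 to 0.756). Vamp2, the vesicle SNARE of synapses and granules, measured 19.1 FPKM (18.1 to 20.1) and 13.99 FPKM (13.2 to 14.9), a ratio of 0.734 (0.677 to 0.794). Vamp1, its nearest relative, measured 1.32 and 0.85 FPKM, a ratio of 0.644 (0.530 to 0.783). Against these, Snap23 measured 16.3 and 18.3 FPKM, Vamp3 35.0 and 37.4 FPKM, and Snap29, a SNARE of autophagy and endosomes, 12.6 and 12.3 FPKM. The intervals of the Snap23 ratio (1.05 to 1.21) and the Vamp3 ratio (1.01 to 1.14) lay just above 1. Outside the set, other broadly expressed syntaxin and VAMP genes were below 1, with ratios of 0.844 (0.770 to 0.926) for Stx4a, 0.814 (0.755 to 0.877) for Stx16 and 0.896 (0.808 to 0.992) for Vamp4.

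Ratios of 2 genes within a library do not depend on how the libraries were scaled. Snap23 exceeded Snap25 by 20.3-fold in wild type and 30.0-fold in the knockout, and the ratio of Snap25 to Snap23 in the knockout was 0.678 of its wild-type value (0.505 to 0.910). For Vamp2 to Vamp3 the ratio was 0.545 in wild type and 0.374 in the knockout, a change to 0.686 (0.621 to 0.758). For Rab3a to Rab3d it was 1.81 and 1.28, a change to 0.707 (0.550 to 0.908). In each of these 3 pairs the first gene was lower relative to the second by more than counting error. The ratio of Syt1 to Syt11 was instead higher, at 0.0711 and 0.111, a change of 1.57-fold (1.32 to 1.85). The changes of Vamp1 to Vamp2, at 0.878 (0.714 to 1.08), and of Cadps to Cadps2, at 1.20 (0.939 to 1.53), were within counting error.

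**Figure D3:**
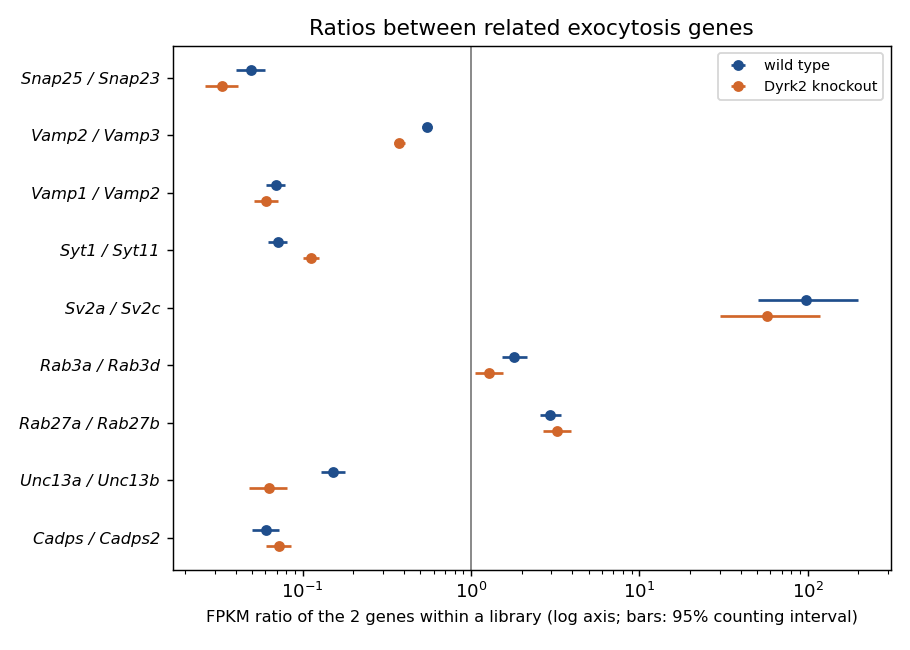
Ratio of FPKM between 9 pairs of related genes within each library (log axis), with 95% counting intervals. The intervals of Vamp2 to Vamp3, Syt1 to Syt11 and Unc13a to Unc13b do not overlap between libraries, those of Rab27a to Rab27b do, and Cplx1 to Cplx2 is not drawn because Cplx1 had 2 and 3 fragments.

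Among priming factors, Unc13b and Cadps2 were near level, while Rims2 and the weakly expressed Unc13a had ratios below 1 by more than counting error. Unc13b, a Munc13 protein that prepares vesicles for fusion, measured 4.14 and 3.95 FPKM, and Cadps2, a CAPS protein of dense-core granules, 6.99 and 7.21 FPKM. Rims2, a Rab3-binding scaffold of endocrine release sites, measured 3.35 FPKM (3.11 to 3.61) and 2.64 FPKM (2.43 to 2.87), a ratio of 0.788 (0.704 to 0.882). Unc13a, the chief Munc13 of brain synapses, was below the 1 FPKM filter at 0.63 FPKM (159 fragments) and 0.25 FPKM (63 fragments), a ratio of 0.397 (0.290 to 0.532). Its ratio to Unc13b was 0.152 in wild type and 0.0633 in the knockout, a change to 0.416 (0.308 to 0.561). Colgalt1, which overlaps 3.92% of its exon bases on the other strand, measured 30.7 and 27.8 FPKM. Rims1, at 0.69 and 0.73 FPKM, and Cadps, at 0.42 and 0.52 FPKM, had intervals that include 1.

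Synaptotagmins did not share a direction. Of 8 above the filter, 4 had log2 ratios below 0 and 4 above, and the median was 0.00. Syt11, among the 4 below 0, stood at -0.007 and moved above 0 when the libraries were rescaled, as given below. Syt5, a calcium-binding form, measured 11.7 FPKM (10.8 to 12.7) and 9.29 FPKM (8.45 to 10.2), a ratio of 0.793 (0.699 to 0.900). Syt4, which does not itself bind calcium in the usual way, measured 2.08 and 1.33 FPKM, a ratio of 0.639 (0.495 to 0.823). The antisense gene Gm26658, which overlaps 14.5% of its exon bases, was listed at 0 in both. Syt1, the fast calcium sensor of synaptic vesicles, went the other way at 1.52 FPKM (1.34 to 1.72) and 2.37 FPKM (2.15 to 2.62), a ratio of 1.56 (1.33 to 1.83).

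The remaining synaptotagmins above the filter lay close to equality. Syt11, which lacks calcium binding, was the most abundant at 21.4 and 21.3 FPKM. Syt7, the slow, high-affinity sensor of endocrine release, measured 1.60 and 1.61 FPKM, and Syt9, a sensor of the same group as Syt1, 4.38 and 4.44 FPKM. Syt13, an atypical form without calcium binding, measured 4.01 and 3.89 FPKM and Syt3, a calcium-binding form of brain, 1.39 and 1.56 FPKM. Below the filter, Syt12 measured 0.65 and 0.41 FPKM. Syt6, known from the sperm acrosome, measured 0.08 FPKM (9 fragments) and 0.44 FPKM (52 fragments), a ratio of 5.50 (2.81 to 13.3). Atg4a-ps, which overlaps 8.67% of its exon bases on the other strand, measured 0.17 and 0.42 FPKM. Cplx2, the complexin found in both neurons and endocrine cells, was level at 16.7 and 16.3 FPKM, while Cplx1 rested on 2 and 3 fragments.

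Other genes of the exocytosis pathway, a list of 117 of which 116 were matched, had a median log2 ratio of -0.06 over the 81 above the filter. Of these 3 were lower (3.70%) and 1 higher (1.23%), shares below the 4.56% and 2.06% of all genes. The counting interval of the plain ratio lay below 1 for 27 of the 81 and above 1 for 8, against 22.3% and 17.7% of all genes. At 2-fold 3 of the 81 were still lower and 1 higher, against 0 and 0 of the 28 and 265 and 120 of all 14000. With the whole interval beyond 1.5-fold 4 of the 81 were lower, against 3 of the 28 and 256 of all 14000. The 3 lower genes were Ptprn, Baiap3 and Cplx3. Ptprn encodes the dense-core granule membrane protein IA-2 and measured 5.94 FPKM (5.43 to 6.48) in the wild-type and 1.12 FPKM (0.910 to 1.37) in the knockout library, 5.30-fold lower (4.24 to 6.65). Baiap3, a Munc13-related protein of dense-core vesicle traffic, measured 5.01 FPKM (4.58 to 5.46) and 1.32 FPKM (1.11 to 1.56), 3.80-fold lower (3.13 to 4.61). Cplx3, a complexin known from retinal synapses, measured 1.06 and 0.17 FPKM (63 and 10 fragments), 6.24-fold lower (3.22 to 13.8). The gene higher in the knockout was Sncg, a synuclein of peripheral and sensory neurons, at 0.88 and 3.50 FPKM (15 and 60 fragments). Cplx3 passed the filter through the wild-type library only and Sncg through the knockout library only, in each case the side where the gene is high.

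Active zone genes, which organise the release site, lay on both sides of 1: of 10 above the filter 6 had log2 ratios below 0 and 4 above. Pclo, which encodes the scaffold piccolo, measured 1.64 and 0.93 FPKM, with a ratio of 0.567 (0.502 to 0.640). Erc2 measured 2.92 and 1.83 FPKM, a ratio of 0.627 (0.548 to 0.717), and Rimbp2 1.07 and 0.57 FPKM, a ratio of 0.533 (0.413 to 0.684). These 3 plain ratios lay beyond 1.5-fold, but not after 0.5 FPKM was added. Erc1, at 6.88 and 7.28 FPKM, Ppfia1, at 11.3 and 11.4, Rims3, at 1.46 and 1.56, and Rims4, at 0.96 and 1.16 FPKM, had intervals that include 1. So did Bsn, which encodes the scaffold bassoon, at 0.66 and 0.60 FPKM. The apical syntaxin gene Stx3, at 9.06 and 6.19 FPKM, had a ratio of 0.683 (0.620 to 0.752). All 9 exocyst genes, which tether vesicles of constitutive secretion, lay within 1.5-fold, as did 93.4% of all 14000 genes, and their median log2 ratio was 0.00. All 11 vesicle retrieval genes above the filter also lay within it, with a median of 0.00. A list of further SNAREs, Munc18 proteins, complexins, NSF and its adaptors had 23 genes above the filter, 22 of them within 1.5-fold (all but Cplx3), with a median of -0.13. Of the 23, 21 had log2 ratios below 0 and 1 above, and 10 had intervals below 1 and 0 above. Medians of the other classes were -0.23 over 5 granule membrane and biogenesis genes, -0.20 over 10 active zone genes, -0.11 over 6 genes of the Rab cycle, -0.01 over 11 vesicle genes and 0.03 over 5 synaptotagmin-like and related genes. Of 7 vesicular transmitter transporters, 6 stayed below 1 FPKM in both libraries. The most abundant of the pathway in the wild-type library were Snap47 at 36.5 and 37.5 FPKM, Stx12 at 30.1 and 28.3, Napa at 29.7 and 26.6, Dnajc5 at 27.3 and 29.0, Rabac1 at 26.3 and 23.4 and Stx4a at 21.2 and 17.9 FPKM.

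Cargo of the same granules had a lower median ratio than the machinery. Of 11 granin and prohormone processing genes, 9 passed the filter and 6 of them were lower, against 4.56% of all genes. Their median log2 ratio was -1.04. Of the 6, Pcsk1, at 2.45 and 0.40 FPKM, passed the filter through the wild-type library only, the side where it is high. The summed level of the 11 was 387.0 FPKM in wild type and 126.2 FPKM in the knockout. Scg2, a granin, measured 188.5 and 33.7 FPKM. Above the filter, log2 ratios of this list ran from -3.08 for Chga to 0.03 for Pam, and Cpe measured 53.5 and 49.5 FPKM. In the hormone lineage list they ran from -1.67 for Cga to 0.01 for Pomc. Genes of hormone lineages had a median of -0.67 over 6 above the filter. Among these Neurod1, at 3.33 and 0.71 FPKM, also passed through the wild-type library only. The summed level over 14 was 136.2 and 70.8 FPKM, with Gh, Prl, Lhb and Pou1f1 listed at 0 in both libraries. The part of secretory cell number in the exocytosis values was not tested.

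Neuronal markers had ratios on both sides of 1. Of 15 listed, 12 passed the filter, with a median log2 ratio of 0.28. Of the 12, 2 were lower and 0 higher, against 4.56% and 2.06% of all genes. The plain ratio had a counting interval above 1 for 9 of the 12 and below 1 for 3. Over all genes these shares were 17.7% and 22.3%. Tubb3, a neuronal tubulin, measured 15.9 and 23.1 FPKM and Elavl3, a neuronal RNA-binding protein, 2.45 and 3.83 FPKM, the same direction as Syt1. Nefm, a neurofilament gene, measured 16.8 and 9.19 FPKM, and Rbfox3, a marker of mature neurons, 2.40 and 1.38 FPKM. The summed level of the 15 was 120.7 FPKM in wild type and 111.9 FPKM in the knockout, and none was at 0 in either library. Nefl, another neurofilament gene, held the largest part of that sum, at 50.0 and 34.0 FPKM. The part of nerve tissue in the exocytosis values was not tested.

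**Figure D4:**
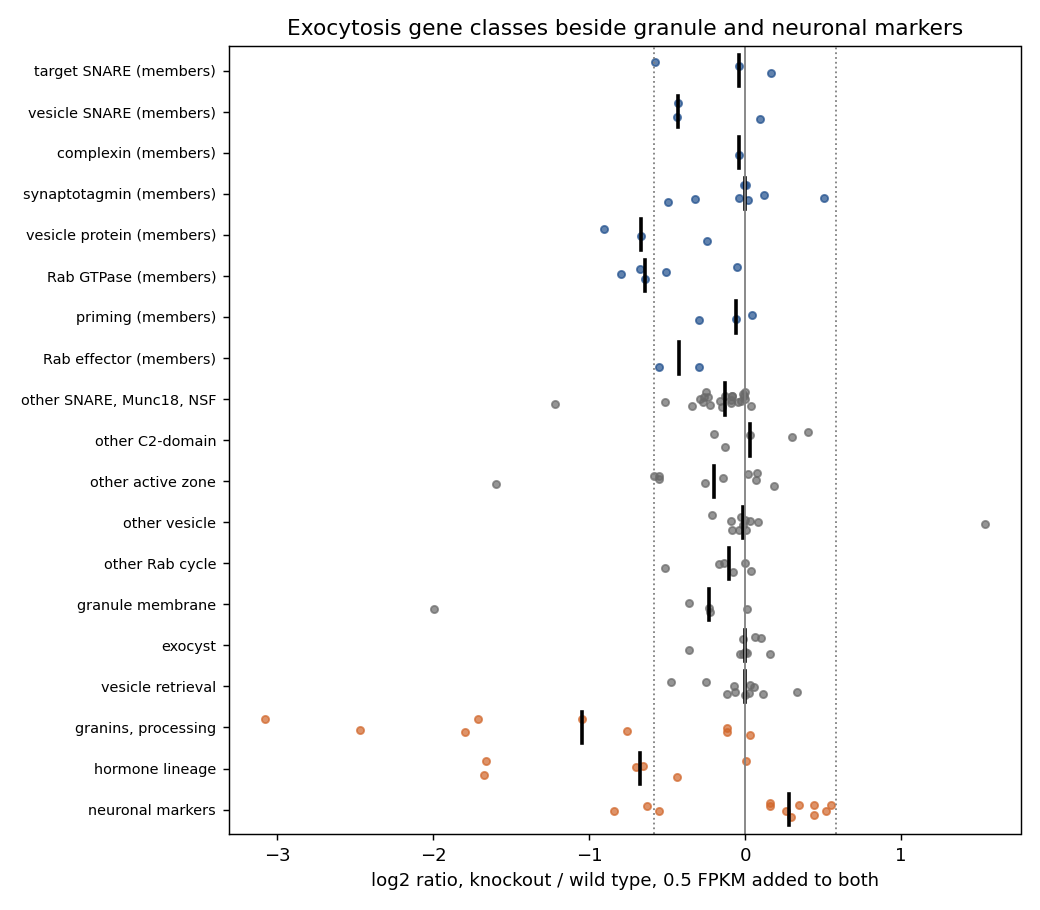
Log2 ratio, knockout over wild type with 0.5 FPKM added to both, of genes of at least 1 FPKM by class: the 40-gene set in blue, other exocytosis genes in grey, and granule, hormone lineage and neuronal markers in orange, with class medians as black bars and 1.5-fold dotted. Vesicle protein and Rab GTPase medians stand at -0.67 and -0.64, between the exocyst at 0.00 and the granin list at -1.04.

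Marker lists of other tissues had median log2 ratios on both sides of 0. Mesenchyme markers had a median log2 ratio of -1.14 over 7 genes, glial markers -0.12 over 5, macrophage markers -0.11 over 6, erythroid markers -0.38 over 5, oral epithelium markers -0.12 over 4, hypothalamic markers -0.07 over 6 and endothelial markers 0.20 over 6. Pouch progenitor markers had a median of -0.14 over 9 genes. Some genes went against their list's median. Of the mesenchyme list 6 had log2 ratios below 0 and 1 above, Prrx1 at 0.83 and 1.67 FPKM. In the oral epithelium list 3 were below 0 and 1 above, Krt15 at 0.28 and 1.55 FPKM (10 and 55 fragments). Trp63 of that list, below the filter, measured 0.02 and 0.32 FPKM (3 and 54 fragments). The part of these tissues in the exocytosis values was not tested.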

How the data were processed

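RNA of mouse pituitaries at embryonic day E12.5 was sequenced from polyA-selected, stranded libraries, per the labels' protocols. The authors deposited FPKM to 2 decimals with the summed exon length of each gene, per the file headers. The submitters' processing notes name cutadapt 1.9.1, HISAT2 2.0.1 and GRCm38. How fragments were counted, with or without strand, and on which annotation release, is not given in the sources used here. FPKM are relative to all fragments counted, so abundant transcripts shift the rest.

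Symbols and coordinates came from GENCODE M21 (GRCm38), which matched 55141 of 55401 identifiers, and the deposited exon length equals that of GENCODE for 39 of the 40 members. Exons of 13 members overlap another gene, over 0.273% to 17.2% of their bases, which counting without strand could confuse. Where identifiers shared a symbol, the one with the higher mean FPKM was used.

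FPKM multiplied by length moves in steps of 1 fragment, which gave the library totals. All 1512 and 1372 values checked were whole within 0.1 fragment. A gene passed the filter when either library reached 1 FPKM. Log2 ratios are knockout over wild type after adding 0.5 FPKM, which understates changes of weak genes, and fold values of single genes are plain ratios. Changes in a ratio of 2 genes have approximate log-normal counting intervals. No count model was used. The steps were tested on simulated data.

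The members, gene lists and tests were chosen with earlier results of these data known. Named are all members, and of the other exocytosis genes those past 1.5-fold, the 6 most abundant, and Pclo, Erc2, Rimbp2, Erc1, Ppfia1, Rims3, Rims4, Bsn, Stx3, Stx16, Vamp4 and Rph3a, chosen after their values were seen. Marker genes were named as examples, and not every list's range is shown. Analyses used Python 3.11.15, numpy 2.4.6, scipy 1.17.1 and pandas 2.3.3.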

Additional observations from a re-analysis of the deposited data

How the results depend on the processing

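No paired analysis was possible because each genotype had a single library. The count of 5 lower and 0 higher members became 8 and 1 with 0.1 FPKM added in place of 0.5, and 2 lower with 2 FPKM added or with a filter of 5 FPKM. It became 0 lower at 2-fold, 3 lower (Syp, Rab3b and Rab27b) with the whole counting interval beyond 1.5-fold, and 14 lower and 3 higher with an interval that excludes 1, a rule chosen after the data were examined. With no filter 1 member, Syt6, was higher and the members' median was -0.055. The other exocytosis genes, 3 lower and 1 higher, became 6 lower with 0.1 FPKM added, 2 higher with no filter, 0 higher with a filter of 5 FPKM, and 27 lower and 8 higher with an interval that excludes 1. Over all genes the 638 lower and 289 higher became 835 and 384 with 0.1 FPKM added and 301 and 132 with 2 FPKM added. They became 1192 and 622 with no filter, 178 and 60 with a filter of 5 FPKM, and 265 and 120 at 2-fold. With the interval beyond 1.5-fold they were 256 and 93, and with an interval that excludes 1 they were 3120 and 2481. In each case the alternative changes which weak or slightly different genes can count. Scaling by a trimmed mean or the upper quartile multiplied knockout values by 1.015 and 1.009 and left the members' count at 5 and 0. The same value added to both sides cannot change the sign of a log2 ratio, so there signs are no check. The scalings could change it only for values near 0. Syt11, at -0.007, became 0.014 with the trimmed mean and 0.006 with the upper quartile. The median over all genes, at -0.016, became 0.005 and -0.003. With 2 FPKM added the log2 ratios of all 5 lower members shrank. They were then -0.35 for Rab27b, -0.49 for Sv2a, -0.51 for Rab27a, -0.62 for Syp and -0.65 for Rab3b. Some genes under 1 FPKM rest on few fragments, such as Cplx1 with 2 and 3, while the long Unc13a had 159 and 63.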
